A study of Rattus norvegicus with 8 samples.

Results

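The extracellular matrix genes described here were the collagen chains, the laminin chains, the numbered ADAMTS proteases and a set of named matrix proteoglycans and glycoproteins, chosen by gene symbol. The symbol patterns and 12 listed names found 53 genes among the 13272 gene symbols analysed, 26 of them collagen chains, and a symbol with several rows was represented by the row with the highest mean of both groups. Of the 12 listed names, Ogn was not analysed here and the other 11 are described. Measured values entered the rule only in choosing the row of a gene. The genes and the lists used below were, however, chosen with earlier results of these data known.

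RNAseq had been carried out on whole hippocampi of 8 adrenalectomized (ADX) rats, labelled Sprague-Dawley and aged 3 to 4 months, whereas the study's methods name male Lister hooded rats. The 4 vehicle rats, whose titles call them untreated, received 0.45% saline, and the 4 CORT rats received corticosterone-2-hydroxypropyl-beta-cyclodextrin at 0.75 mg/mL, each infused for 30 min at ZT 2 (zeitgeber time, hours after lights on). Hippocampi were collected 2 h after the infusion began. Rats of both groups had lost their adrenal glands, and according to the methods they drank corticosterone in saline during recovery and plain saline before the infusion, so that neither group had adrenal corticosterone of its own. The question was which hippocampal genes respond to an acute rise of corticosterone.

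The values were FPKM (fragments mapped, scaled to a fixed transcript length and a fixed number of mapped reads), so that levels of different genes can be set side by side. Each group of 4 rats had 1 pooled FPKM value. No error, spread between rats or depth per library can be had from these values, and no test was run on any difference below. A ratio is the CORT value over the vehicle value, given on the log2 scale without a pseudocount, and a gene was counted as lower or higher when the ratio was at least 1.5-fold. As a yardstick, the middle 50% of all 13272 symbols had log2 ratios between -0.11 and 0.12, with a median of 0.02. In bulk tissue, fewer cells of a type and less RNA in each cell cannot be told apart.

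Collagens are trimers of chains wound around each other. The fibrillar ones (types I, III, V, XI) form the cables of connective tissue, type IV forms the sheet of the basement membrane, and laminin trimers, joined to that sheet by nidogens, give cells their attachment. Brain tissue proper is poor in fibrillar collagen and rich in lecticans and hyaluronan, while type I and type III collagen, lumican and decorin in the brain are known from fibroblasts of the meninges and large vessels, and the type IV and laminin sheet from blood vessel walls. Glucocorticoids are known to repress collagen synthesis in skin and cultured fibroblasts.

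The median of the matrix genes was slightly lower with CORT, and a minority passed 1.5-fold. Of the 53 genes, 9 were at least 1.5-fold lower (17.0%), beside 3.99% of all symbols analysed. Only Col19a1 was at least 1.5-fold higher (1.89% of the 53), beside 1.92% of all symbols, which is near the background. The log2 ratio was below 0 for 38 of the 53 genes, beside 45.8% of all symbols, and the median was -0.19. The 9 lower genes were Col3a1, Col1a1, Nid2, Col6a3, Aebp1, Adamts1, Bgn, Fn1 and Nid1. Among the 48 genes with a mean of at least 1 FPKM over both groups, 8 were at least 1.5-fold lower and 1 higher, beside 3.06% and 1.66% of the symbols at that level. The remaining 43 genes lay within 1.5-fold of their vehicle level. Nearest to that limit were Adamts4, 1.49-fold lower and not counted, and Nid1, 1.58-fold lower and counted. With 1 FPKM added to both groups, Col3a1, Col1a1, Aebp1 and Bgn passed 1.5-fold (4 of 53, or 7.55%, beside 1.82% of all symbols), whereas Nid1, Nid2, Adamts1, Fn1, Col6a3 and Col19a1 did not.

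Levels spanned from 0.855 FPKM for Col6a3 to 313 FPKM for Sparc as the mean of both groups, with a median of 5.12 FPKM. Sparc, a collagen-binding glycoprotein that glia and endothelial cells secrete, held 333 of the 722 FPKM summed over the 53 genes with vehicle and 292 of 636 FPKM with CORT. Its own log2 ratio was -0.19, a difference of -40.8 FPKM. Without Sparc, the summed level of the other 52 genes was 388 FPKM with vehicle, against 344 FPKM with CORT, a log2 ratio of -0.18.

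**Figure D1:**
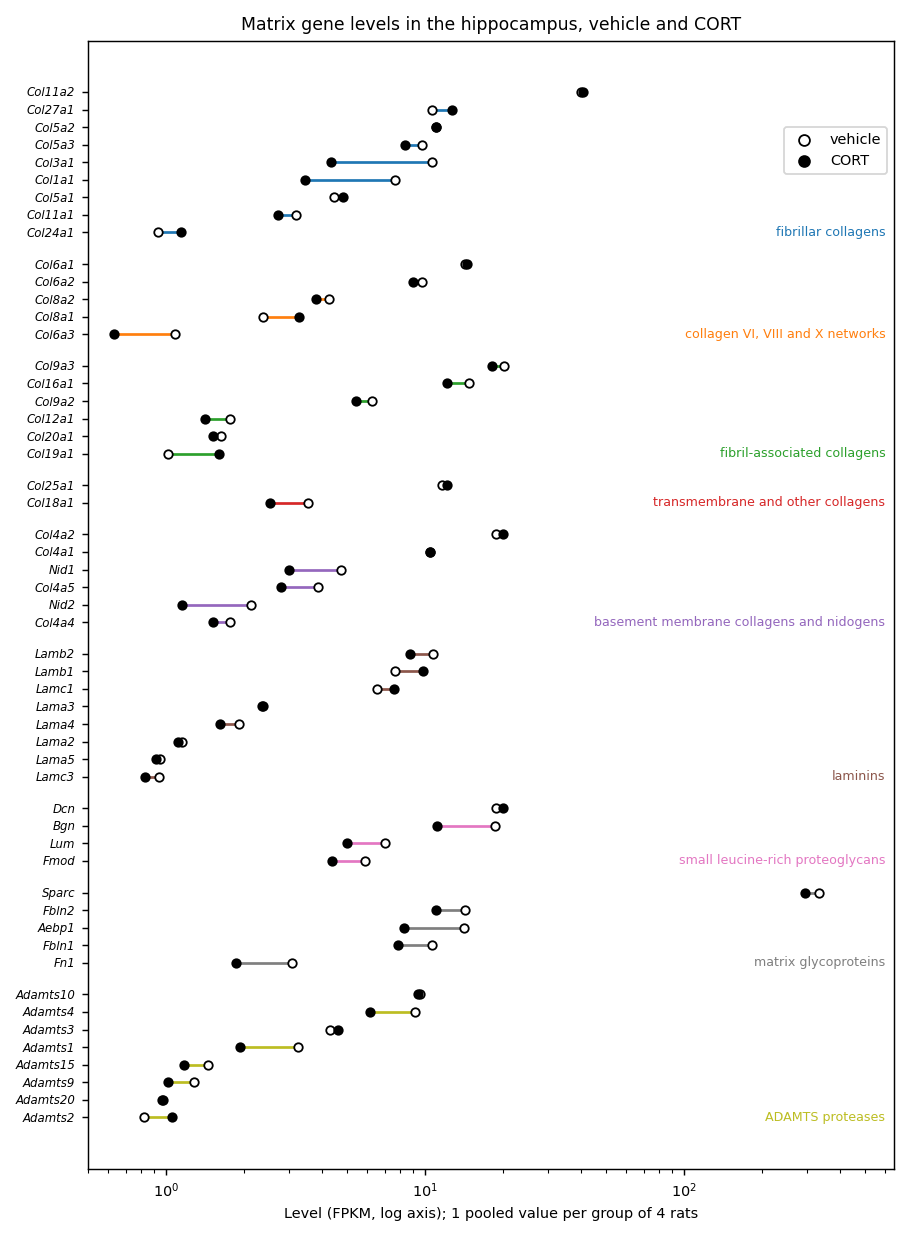
Level of each of the 53 matrix genes in FPKM on a log axis, grouped by role (colours), with open circles for vehicle and filled circles for CORT, each the authors' single value for 4 rats, without error bars. Col3a1 and Col1a1 have the widest gaps, Sparc at 333 and 292 FPKM stands far above the other genes, and Col5a2, Col11a2 and Col4a1 have circles that lie on each other.

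The fibrillar collagens split. Col3a1, the single chain of type III collagen, on chromosome 9 of the rn6 genome between 52023294 and 52059217, stood at 10.7 FPKM with vehicle, against 4.35 FPKM with CORT. Its log2 ratio of -1.29, a 2.45-fold lower level, was the lowest of the 53 genes, and 0.716% of all symbols had a lower one. Col1a1, the major chain of type I collagen, on chromosome 10 between 82745800 and 82762789, was at 7.66 and 3.44 FPKM, a log2 ratio of -1.15 or 2.22-fold lower. These were the 2 genes of the set that were at least 2-fold lower, beside 1.46% of all symbols, and 0 were 2-fold higher, beside 0.648%. Relative to each other they hardly moved, since Col1a1 was at 0.717 of the Col3a1 level with vehicle and at 0.791 with CORT.

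The other fibrillar chains did not share this. Col11a2, a type XI chain, was the most abundant of them, at 40.1 FPKM with vehicle, against 40.6 FPKM with CORT, a log2 ratio of 0.02. Col5a2, a type V chain, which nucleates and thins type I fibrils, was at 11.0 and 11.1 FPKM, a log2 ratio of 0.01. Col5a1, its partner chain, was at a log2 ratio of 0.11, Col5a3 at -0.23 and Col11a1 at -0.23. Col27a1, a fibrillar chain of cartilage that was at 10.6 and 12.7 FPKM here, had a log2 ratio of 0.25. The highest log2 ratio of the group was 0.29 for Col24a1, at 0.932 and 1.14 FPKM. Of the 9 chains, 2 were lower and 0 higher by 1.5-fold, beside 3.99% and 1.92% of all symbols. Their median log2 ratio was 0.01, and the 6 chains at a mean of at least 5 FPKM had a median of -0.11. Of the fibrillar chains looked for, Col1a2 and Col2a1 were not among the genes analysed, so that type I collagen is described by Col1a1 only.

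Col3a1 and Col5a2 are neighbours in the genome, with loci 33.3 kb apart on chromosome 9. With vehicle they stood at nearly the same level, Col3a1 at 0.970 of Col5a2, and with CORT at 0.393 of it. A similar pair of neighbours with unlike ratios was Dcn and Lum, 37.4 kb apart on chromosome 7. By contrast, the neighbours Col4a1 and Col4a2, and Col6a1 and Col6a2, differed by 0.11 and 0.14 in log2 ratio within each pair. These 4 pairs were all the pairs of matrix genes next to each other within 200 kb.

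Among the network-forming collagens, the type VI chains of a single trimer had unlike ratios, a gap that rests on Col6a3, the gene with the lowest level of the set. Type VI collagen is a beaded filament around cells, built from different chains, and Col6a1, at 14.3 and 14.5 FPKM, had a log2 ratio of 0.02. Col6a2 was at 9.74 and 8.97 FPKM, a log2 ratio of -0.12. Col6a3, the long chain with the many von Willebrand domains, was at 1.08 FPKM with vehicle, against 0.629 FPKM with CORT, a log2 ratio of -0.78. With 1 FPKM added to both groups its log2 ratio was -0.35, inside the 1.5-fold limit. Col6a3 stood at 0.0758 of the Col6a1 level with vehicle and 0.0433 with CORT. Type VIII collagen, a short-chain network of vessel walls, also had unlike chains: Col8a1 was at 2.36 and 3.27 FPKM, a log2 ratio of 0.47, and Col8a2 at 4.25 and 3.80 FPKM, a log2 ratio of -0.16. Of the 5 chains, 1 was lower and 0 higher by 1.5-fold, beside 3.99% and 1.92% of all symbols.

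The fibril-associated collagens, which sit on the surface of fibrils, had a median log2 ratio of -0.18 and a range from -0.31 to 0.66, and held the single higher gene of the set. Col9a3, a type IX chain and the most abundant, was at 20.2 and 18.2 FPKM, a log2 ratio of -0.15, and its partner Col9a2 was at -0.21. Col16a1 was at 14.8 and 12.1 FPKM, a log2 ratio of -0.29. Col12a1, which decorates type I fibrils, was at 1.76 and 1.42 FPKM, a log2 ratio of -0.31, while Col20a1 was at -0.10. Col19a1, which neurons make in the brain, was at 1.02 FPKM with vehicle, against 1.61 FPKM with CORT, a log2 ratio of 0.66, and 1.56% of all symbols had a higher one. Its level was low, and with 1 FPKM added to both groups the log2 ratio was 0.37. Col25a1, a transmembrane collagen of neurons, was at 11.6 and 12.2 FPKM, a log2 ratio of 0.07. Col18a1, whose protein lies at basement membranes and yields endostatin, was at 3.54 and 2.53 FPKM, a log2 ratio of -0.48.

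The basement membrane genes differed by component. The 2 main chains of type IV collagen, which make up the sheet of every vessel, were nearly level: Col4a2 was at 18.8 FPKM with vehicle, against 20.1 FPKM with CORT (log2 ratio 0.09), and Col4a1 at 10.5 and 10.4 FPKM (log2 ratio -0.01). Both nidogens, the bridges between the collagen and the laminin sheets, were at least 1.5-fold lower, but not with 1 FPKM added, where Nid2 was at -0.54 and Nid1 at -0.52. Nid2, on chromosome 15 between 4894212 and 4951917, was at 2.14 and 1.16 FPKM, a log2 ratio of -0.88, and 1.81% of all symbols had a lower one. Nid1, on chromosome 17 between 90553393 and 90627101, was at 4.73 and 3.00 FPKM, a log2 ratio of -0.66. The minor type IV chains lay between, Col4a5 with 3.86 and 2.78 FPKM at -0.47 and Col4a4 at -0.22.

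None of the 8 laminin chains was 1.5-fold lower or higher. Beside 3.99% of all symbols lower and 1.92% higher, none of 8 is near the background. Their summed level was 32.3 FPKM with vehicle, against 33.1 FPKM with CORT. Lamb1, a beta chain, was at 7.68 and 9.83 FPKM, a log2 ratio of 0.36, and Lamb2, the other beta chain, at 10.8 and 8.79 FPKM, a log2 ratio of -0.29. Lamb1 was at 0.714 of the level of this Lamb2 row with vehicle and at 1.12 of it with CORT. With the rows of Lamb2 summed it was at 0.557 and 0.800, below Lamb2 in both groups. Lamc1, the gamma chain that most laminins share, was at 6.54 and 7.62 FPKM, a log2 ratio of 0.22. The alpha chains were scarce: Lama3 was at 2.37 and 2.36 FPKM, Lama4 of vessel walls at 1.92 and 1.62 FPKM, Lama2 at 1.16 and 1.11 FPKM and Lama5 at 0.950 and 0.918 FPKM. The third gamma chain, Lamc3, was at 0.937 and 0.832 FPKM. Set against Lamc1, Nid1, which binds that chain, went from 0.723 of its level with vehicle to 0.394 with CORT.

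**Figure D2:**
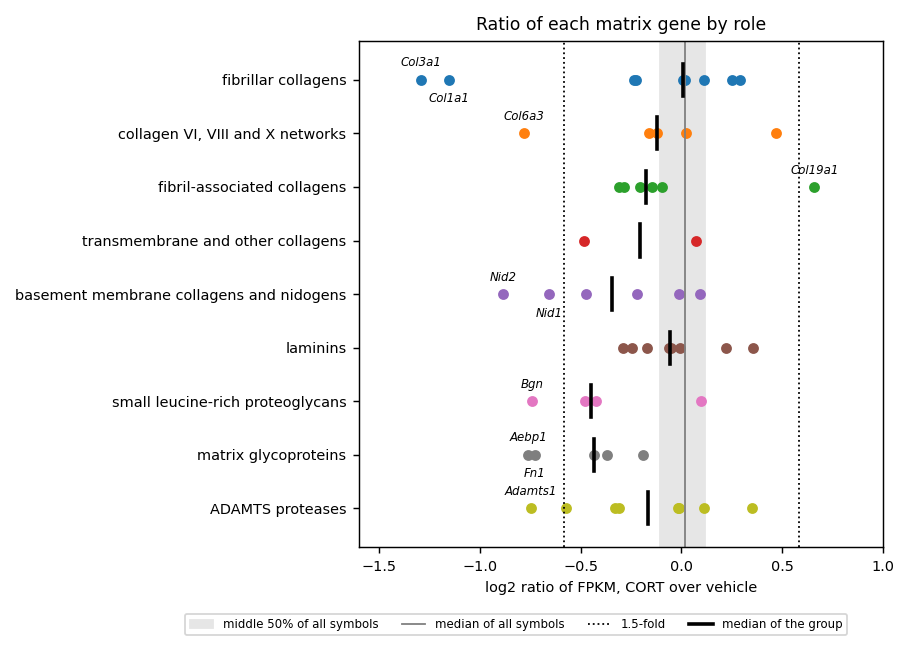
Log2 ratio of FPKM, CORT over vehicle, for each of the 53 matrix genes (points) in 9 groups by role, with the median of each group as a black bar, the middle 50% of all symbols as a grey band and the 1.5-fold limits as dotted lines. Col3a1 at -1.29 and Col1a1 at -1.15 stand apart from the other fibrillar chains, both nidogens lie beyond the lower limit while Col4a1 and Col4a2 lie in the grey band, and Col19a1 at 0.66 alone passes the upper limit.

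Small leucine-rich proteoglycans bind collagen fibrils and set their width. Bgn (biglycan), on the X chromosome between 157319045 and 157331204, stood at 18.7 FPKM with vehicle, against 11.2 FPKM with CORT, a log2 ratio of -0.74. Dcn (decorin), its nearest relative, was at 18.8 and 20.0 FPKM, a log2 ratio of 0.09. These relatives were at the same level with vehicle, Bgn at 0.994 of Dcn, and at 0.557 with CORT. Lum (lumican) was at 7.01 and 5.03 FPKM, a log2 ratio of -0.48, and Fmod (fibromodulin) at 5.87 and 4.38 FPKM, a log2 ratio of -0.42. The median of the 4 genes was -0.45, and 1 of them was 1.5-fold lower, beside 3.99% of all symbols.

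All 5 matrix glycoproteins had a lower level with CORT, with a median log2 ratio of -0.43. By 1.5-fold, 2 of them were lower, beside 3.99% of all symbols. Aebp1, a secreted carboxypeptidase-like protein that binds fibrillar collagen, on chromosome 14 between 86101276 and 86117578, was at 14.1 and 8.32 FPKM, a log2 ratio of -0.76. Fibulins tie elastic fibres to the basement membrane, and Fbln1 was at 10.6 and 7.89 FPKM (log2 ratio -0.43) and Fbln2 at 14.3 and 11.1 FPKM (log2 ratio -0.37). Fn1, fibronectin, the scaffold on which cells lay down collagen, was at 3.08 and 1.86 FPKM, a log2 ratio of -0.73. Its second row was at 2.48 and 2.24 FPKM, a log2 ratio of -0.14, and with both rows summed the log2 ratio was -0.44, inside the 1.5-fold limit.

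The ADAMTS proteases act on matrix in different ways. Of those that cleave the lecticans, Adamts1 was at 3.24 and 1.93 FPKM, a log2 ratio of -0.75, or -0.53 with 1 FPKM added, which is inside the 1.5-fold limit. Adamts4, also a lectican protease and known in oligodendrocytes, was at 9.18 and 6.16 FPKM, a log2 ratio of -0.58. Adamts9 and Adamts15 were lower by less, at -0.33 and -0.31, and Adamts20 was at -0.01. The procollagen proteases, which trim the ends of fibrillar collagens, were not lower: Adamts3 was at 4.29 and 4.63 FPKM (log2 ratio 0.11) and Adamts2 at 0.826 and 1.05 FPKM (log2 ratio 0.35). Adamts10, a protein of fibrillin microfibrils, was at 9.57 and 9.45 FPKM, the most abundant of the 8, with a log2 ratio of -0.02.

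Of the 53 genes, 47 had 1 row and 6 had 2. Both rows of Fbln1 pointed down, at -0.43 and -0.46, and both rows of Adamts10 lay at -0.02 and -0.04. The rows of Lama2 held the same values. Those of Lamb2 pointed in opposite directions, with -0.29 for the row used and 0.20 for the second at 3.04 and 3.50 FPKM. The second row of Col25a1, at 2.89 and 4.46 FPKM, had a log2 ratio of 0.63, above the 0.07 of the row used.

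The sequence before the start of transcription is shown for those of the 9 lower genes that were matched to a RefSeq window, so that their promoters can be read side by side. RefSeq windows of the GRCr8 build were matched by symbol for 40 of the 53 genes and for 4 of the 9 lower ones, so that Col3a1, Col1a1, Nid2, Bgn and Fn1 are named only. The 250 bases before the start of those 4 genes, and the 76 bases between the starts of Col4a1 and Col4a2, the level pair, are shown 5′ to 3′ with the motif matches in capitals. The search was for a half-site of a glucocorticoid receptor element, the TATA box, the GC box and the CCAAT box, each on both strands and none contained in another. The windows lie at chr14:84952604-84952853 on the plus strand for Aebp1, chr17:93069036-93069285 plus for Nid1, chr9:98886959-98887208 minus for Col6a3, chr11:38427385-38427634 minus for Adamts1 and chr16:84885521-84885596, printed as plus, for the Col4a1 and Col4a2 pair.
Aebp1: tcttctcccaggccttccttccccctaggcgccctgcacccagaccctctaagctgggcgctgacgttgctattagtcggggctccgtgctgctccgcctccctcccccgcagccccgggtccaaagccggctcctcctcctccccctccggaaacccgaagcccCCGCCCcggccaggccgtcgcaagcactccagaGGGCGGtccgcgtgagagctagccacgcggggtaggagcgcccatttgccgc
Nid1: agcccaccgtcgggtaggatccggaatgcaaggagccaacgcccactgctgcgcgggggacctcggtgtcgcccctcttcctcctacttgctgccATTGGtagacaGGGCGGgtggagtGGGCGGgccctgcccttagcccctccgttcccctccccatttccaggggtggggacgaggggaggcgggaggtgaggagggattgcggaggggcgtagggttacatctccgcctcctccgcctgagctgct
Col6a3: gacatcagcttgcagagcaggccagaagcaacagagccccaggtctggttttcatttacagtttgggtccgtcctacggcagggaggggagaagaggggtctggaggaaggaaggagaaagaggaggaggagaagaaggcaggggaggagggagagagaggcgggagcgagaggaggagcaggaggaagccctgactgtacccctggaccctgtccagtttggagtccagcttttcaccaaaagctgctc
Adamts1: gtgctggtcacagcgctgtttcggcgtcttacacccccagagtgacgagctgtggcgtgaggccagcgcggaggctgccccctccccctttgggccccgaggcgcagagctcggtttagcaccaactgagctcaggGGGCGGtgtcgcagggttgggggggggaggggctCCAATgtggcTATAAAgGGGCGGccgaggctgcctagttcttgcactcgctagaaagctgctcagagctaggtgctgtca
Col4a1 and Col4a2: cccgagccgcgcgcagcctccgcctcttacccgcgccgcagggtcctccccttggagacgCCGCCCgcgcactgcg

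The half-site of a receptor element, spelled AGAACA, was in 6 of the 40 matrix gene windows (15%) and in none of the 4 shown. Over all 33469 windows of 250 bases, 17.5% held it, and 15.3% of those of protein-coding genes. Both counts are near these shares. A GC box, spelled GGGCGG, was present in 3 of the 4 windows, those of Aebp1, Nid1 and Adamts1, and in 29 of the 40 (72.5%), beside 30.5% of all windows and 38.9% of the 21842 windows of protein-coding genes. The 40 windows were also richer in G and C, with a median of 62.4% beside 54.0% for protein-coding genes. Adamts1 was the gene among the 4 with a TATA box, spelled TATAAA, which starts 70 bases before the transcript. A TATA box was present in 3 of the 40 windows, 7.50%, beside 12.9% of all windows, and a CCAAT box in 12 of the 40, 30.0%, beside 34.0%. These matches describe letters and were not tested as sites.

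**Figure D3:**
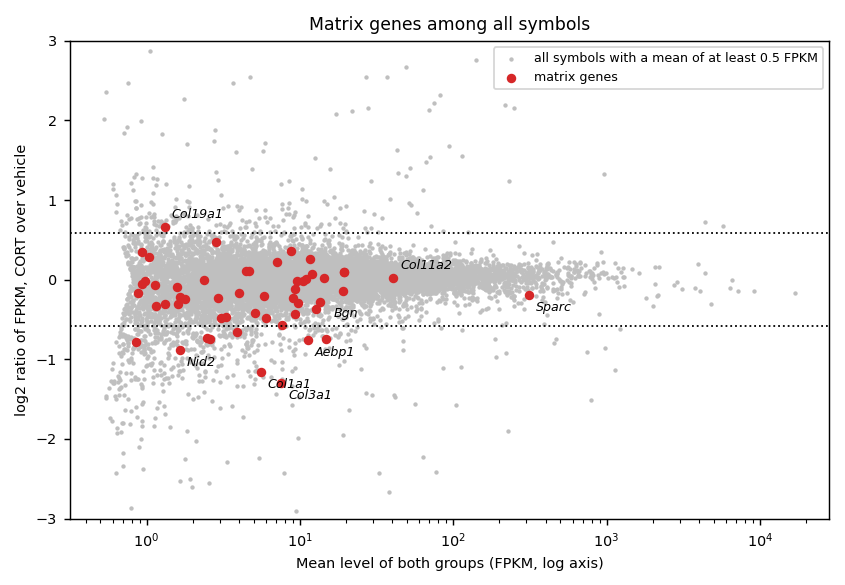
Log2 ratio of FPKM, CORT over vehicle, against the mean level of both groups in FPKM on a log axis, for all symbols with a mean of at least 0.5 FPKM (grey) and the 53 matrix genes (red), with the 1.5-fold limits dotted and 20 symbols beyond the axis limits of 3 not drawn. Col3a1, Col1a1, Aebp1 and Bgn lie below most symbols of a like level, whereas Sparc and Col11a2, the most abundant matrix genes, lie at -0.19 and 0.02.

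Other genes of matrix biology were counted from lists drawn up with earlier results of these data known. Of 15 genes for the processing and crosslinking of collagen, 3 were 1.5-fold lower and 2 higher, with a median log2 ratio of -0.14. Pcolce, which speeds the trimming of procollagen, was at 6.16 and 3.19 FPKM, a log2 ratio of -0.95, and Crtap, a partner of the prolyl 3-hydroxylase, was at 1.78 and 1.19 FPKM, a log2 ratio of -0.59. Lox, the lysyl oxidase that crosslinks collagen, was at 0.956 and 0.575 FPKM. P4ha2, a catalytic subunit of the prolyl 4-hydroxylase that stabilises the triple helix, was at 6.30 and 9.49 FPKM, a log2 ratio of 0.59, and its relative P4ha3 was at 0.538 and 0.944 FPKM. None of 13 matrix receptors, integrin chains, dystroglycan and the discoidin receptors, passed 1.5-fold in either direction, and their log2 ratios lay between -0.32 and 0.25. With 3.99% of all symbols lower and 1.92% higher, none of 13 is near the background.

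Among 11 metalloproteinases and their inhibitors, 1 was lower and 1 higher by 1.5-fold, beside 3.99% and 1.92% of all symbols. Timp1, an inducible inhibitor of metalloproteinases, was at 13.3 FPKM with vehicle, against 4.45 FPKM with CORT, a log2 ratio of -1.58 and thus below that of Col3a1. Mmp17, a membrane-bound metalloproteinase, was at 5.13 and 8.20 FPKM, a log2 ratio of 0.68. The 10 genes for lecticans and perineuronal nets, the matrix of brain tissue itself, had a median log2 ratio of -0.01, with Bcan (brevican) at 88.7 and 90.8 FPKM. By 1.5-fold, 1 of the 10 was lower, Tnc (tenascin-C), at 3.69 and 2.27 FPKM with a log2 ratio of -0.70, and 1 was higher, Hapln3, at 0.774 and 1.21 FPKM. Of the basement membrane proteoglycans, Agrn (agrin) was at 18.7 and 20.3 FPKM, a log2 ratio of 0.12, and it and Col18a1 both stayed within 1.5-fold.

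Markers of the cells known to make these proteins were counted beside the matrix genes. All 18 markers of meningeal fibroblasts found, none of them a matrix gene of the set, were lower with CORT. By 1.5-fold, 11 of them were lower, beside 3.99% of all symbols. Their median log2 ratio was -0.91, and their summed levels were 331 and 248 FPKM. The most abundant, Igfbp2, was at 110 and 91.1 FPKM, a log2 ratio of -0.28. Igf2 and Mgp, next in level, had log2 ratios of -0.35 and -0.22. Aldh1a2, the retinoic acid enzyme of the meninges, was at 10.2 and 3.78 FPKM and Foxc1, their transcription factor, at 1.73 and 0.754 FPKM. Of 11 mural cell markers, 5 were 1.5-fold lower and 1, Cspg4, was above 0 at 0.21, with a median of -0.43. Their summed levels were 192 and 89.1 FPKM, of which Tagln, a smooth muscle protein, held 105 and 22.5 FPKM. The fall of the sum was thus mostly that of Tagln. Rgs5, the next most abundant, was at 34.1 and 31.2 FPKM, a log2 ratio of -0.12. Of 11 endothelial markers 1 was lower, Kdr, with a median of -0.16 and sums of 135 and 118 FPKM. Among the meningeal markers Foxd1, Foxc1, Tbx18 and Slc47a1 were at or under 1.73 FPKM in both groups. The part of these cells in the ratios of the matrix genes was not tested.

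Markers of tissues beside the hippocampus were uneven. Hippocampal markers were present, with Neurod6 at 128 and 119 FPKM and Camk2a at 593 and 667 FPKM, and 0 of 9 such markers were lower and 1, Zbtb20, higher by 1.5-fold. Of 10 choroid plexus markers none passed 1.5-fold, and Ttr, the transthyretin of that epithelium, was at 6605 and 6598 FPKM. Of all symbols, 3.99% were lower and 1.92% higher, so that so few of 9 or 10 genes are near the background. Of 12 thalamic or habenular markers 7 were lower by 1.5-fold, with a median of -0.71 and sums of 86.5 and 66.9 FPKM. Nr4a2, with a log2 ratio of 0.38, and Rgs16, with 0.02, were above their vehicle level. Of 10 pineal markers listed, 4 were found and 3 of these were lower by 1.5-fold, with a median of -3.86 and sums of 19.0 and 7.49 FPKM. The other, Rom1, was the most abundant and nearly level, at 7.33 and 6.92 FPKM, a log2 ratio of -0.08. It held most of the CORT sum. The 3 lower ones were Tph1 at 5.17 and 0.102 FPKM, Gngt1 at 3.45 and 0.158 FPKM and Gnat2 at 3.00 and 0.307 FPKM. As transcripts of low expression had been removed, these may have been kept through the vehicle group only. The same may hold for the habenular markers Chrna3, at 3.40 and 0.557 FPKM, and Gpr151, at 3.24 and 0.573 FPKM. Glial markers were lower by less in the median, at -0.10 for 7 astrocyte genes, -0.24 for 7 oligodendrocyte genes and -0.25 for 7 microglial genes. Of the astrocyte genes Gfap and Aldh1l1 were 1.5-fold lower, while Slc1a2 at 0.14 and Aldoc at 0.15 were above their vehicle level. The part of these tissues was not tested either.

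**Figure D4:**
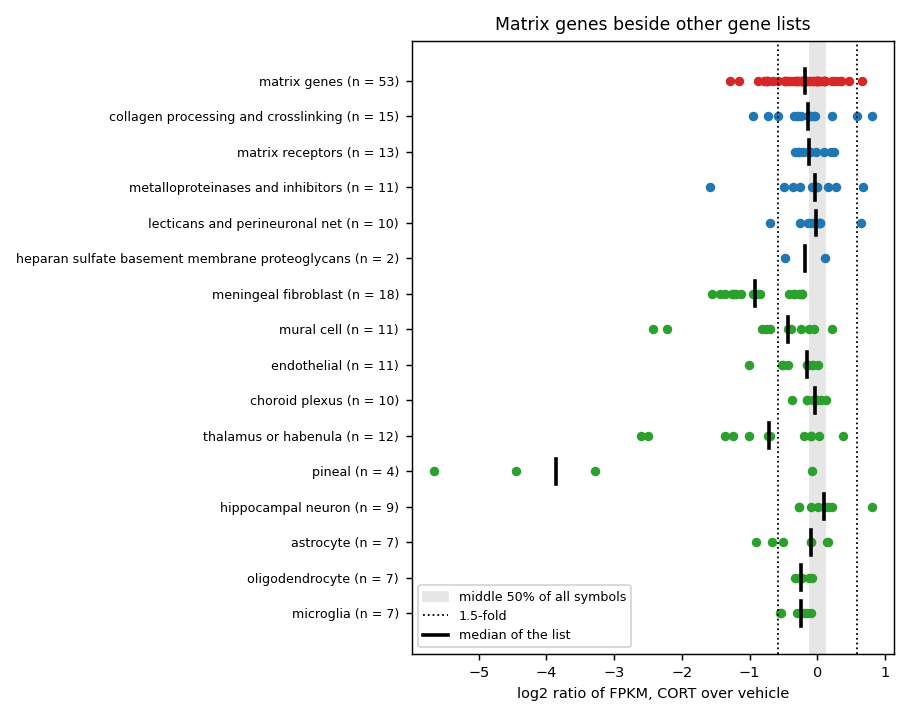
Log2 ratio of FPKM, CORT over vehicle, for the 53 matrix genes (red), other lists of matrix biology (blue) and cell or tissue markers (green), with 1 point per gene, the median of each list as a black bar, the middle 50% of all symbols as a grey band and the 1.5-fold limits dotted. The meningeal fibroblast markers, with a median of -0.91, lie left of the matrix genes, with a median of -0.19, while choroid plexus and hippocampal markers lie around 0.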

How the data were processed

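The authors aligned the reads of 8 TruSeq libraries, 4 for each group, to the rn6 genome with TopHat2 2.0.10 and compared the groups with Cuffdiff 2.2.0, per the labels. Their methods give geometric scaling between libraries, a pooled dispersion, a minimum alignment count, and corrections for multiple mapping, sequence bias and effective length. Transcripts that failed on low expression had been removed by them. The deposited values are FPKM, 1 per group and Ensembl transcript, in 16266 rows with 13272 symbols. The authors' own fold changes, test statistic, p-values and q-values, also in the table, were not used. FPKM keeps no depth per library and the depth is unknown.

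Ratios, counts past 1.5-fold, medians and list summaries were computed with Python 3.11.15, numpy 2.4.6 and pandas 2.3.3, with plots by matplotlib 3.10.9, and the counting was tested on simulated data with known folds. A symbol with several rows was represented by the one with the highest mean. No test of the FPKM values was possible with 1 value per group.

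The genes to name were those with a mean of at least 5 FPKM and a 1.5-fold ratio, and in each of 9 role groups the most abundant gene and the lowest and highest ratio at a mean of at least 1 FPKM. Other genes were named after their values were seen, and the marker and pathway lists were matched by exact symbol. The members and lists were chosen with earlier results of these data known. Alternatives were pseudocounts of 0.1 and 1 FPKM, filters of 1 and 5 FPKM, folds of 5 to 4 and of 2, summed rows and centring on the median. Sequences came from RefSeq, build GRCr8, with loci given as in the table for rn6.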

Additional observations from a re-analysis of the deposited data

How the results depend on the processing

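Of the 53 matrix genes, 9 were lower and 1 was higher by 1.5-fold. With 1 FPKM added to both groups, 4 were lower and 0 higher, beside 1.82% and 1.03% of all symbols. With only the 27 genes at a mean of at least 5 FPKM, 4 were lower (14.8%) and 0 higher, beside 1.27% and 1.16% of the symbols at that level. That filter moved the median log2 ratio of the fibrillar collagens to -0.11, of the basement membrane genes to 0.04, of the laminins to 0.22, of the transmembrane and other collagens to 0.07 and of the ADAMTS proteases to -0.30, with fewer genes in each. A smaller fold, a ratio of 5 to 4, gave 17 lower and 4 higher, beside 9.52% and 5.88% of all symbols, and a fold of 2 gave 2 lower and 0 higher. Under the other alternatives run the number lower lay between 8 and 10 and the number higher was 1: summing the rows of a symbol gave 8, since Fn1 was no longer counted, and centring on the median gave 10. The median log2 ratio of the 53 genes, or of the 48 and 27 genes left by the filters of 1 and 5 FPKM, was between -0.21 and -0.14 under every alternative run for it.

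No paired analysis was possible because each group is a pooled value. Leaving out each rat in turn could not be run either, for the same reason. Without Col1a1 and Col3a1, 7 of the other 51 genes were 1.5-fold lower (13.7%), beside 3.99% of all symbols. The median of the 51 was -0.17, but leaving out 2 of 53 genes can move a median only slightly. Genes near 1 FPKM, such as Col6a3 and Col19a1, are limited by depth that the table does not give.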

Other observations

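Some genes whose names or roles border on the set are left out by the symbol rule. The ADAMTS-like proteins, which share the matrix-binding domains of the ADAMTS family without the protease, had log2 ratios, CORT over vehicle, of -0.03 for Adamtsl1, 0.43 for Adamtsl2, 0.06 for Adamtsl4 and -0.01 for Adamtsl5. Adamtsl2, at 1.46 and 1.97 FPKM, was the highest of them and lay inside the 1.5-fold limit. The collagen galactosyltransferases, which put sugar on hydroxylysine of collagen, were at 14.7 (vehicle) and 14.0 FPKM (CORT) for Colgalt1 and at 3.60 and 3.69 FPKM for Colgalt2. Of the lysyl hydroxylases, Plod1 was at a log2 ratio of -0.12, Plod2 at -0.24 and Plod3 at -0.03. Of the prolyl 4-hydroxylase genes, P4ha2 at 0.59 and P4ha3 at 0.81 were over 1.5-fold higher, while P4ha1 was at 0.22, P4hb at -0.14 and P4htm at 0.13. These genes were chosen after the values were seen.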
